A study of Mus musculus with 7 samples.

Results

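Pth, Gcm2, Casr, Tg, Tshr, Slc5a5, Nkx2-1, Pax8 and Calca, the defining genes of the parathyroid and thyroid glands, were followed in medullary thymic epithelial cells (mTECs) of the mouse. These 9 genes were taken by name from a table of 55536 genes, with no filter on their values. Each was found once. The set was chosen with earlier results of these data known. RNA was measured by SMART-seq, a chemistry that copies full-length transcripts from few cells, in EPCAM-positive mTECs sorted fresh from thymus. The Cre-positive group held 3 libraries (numbers 45, 76 and 80), with the genotype Cre(+) Ikzf1fl/fl Pou2f3-/-. The Cre-negative group held 4 libraries (46, 48, 75 and 77), with the genotype Cre(-) Ikzf1fl/fl Pou2f3-/-. Both groups therefore carried floxed alleles of Ikzf1, which encodes the transcription factor Ikaros, and both lacked Pou2f3, the factor that tuft cells require. The sources used here do not give the cells that express Cre, the floxed exon or the age of the animals. Nothing in the labels ties each number to its own animal, and the p-values then hold for the spread among these samples, in part perhaps technical.

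mTECs transcribe genes of many peripheral organs, in part under the regulator Aire, which exposes developing T cells to the products of those organs. Some mTECs, called mimetic cells, carry the programme of a peripheral cell type. Parathyroid and thymus arise together from the third pharyngeal pouch in the mouse. Parathyroid chief cells secrete parathyroid hormone, which raises blood calcium. Thyroid follicular cells make thyroid hormone on the protein thyroglobulin, and thyroid C cells secrete calcitonin, which lowers blood calcium. The comparison asks whether mTEC transcripts of these glands differ with Cre where Ikzf1 is floxed and tuft cells are missing.

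Library totals were 11383465 to 11623062 reads in the Cre-positive and 9815958 to 12599078 reads in the Cre-negative libraries. Genes with at least 10 reads numbered 17169 to 18014 in Cre-positive and 19417 to 20467 in Cre-negative libraries. Values are the authors' normalized counts, gene reads divided by a size factor of each library. Changes were tested by limma on log2(normalized count + 1), with Benjamini-Hochberg adjustment over the 22878 genes with a mean of at least 5. A gene was called at an adjusted p under 0.05. Fold changes are differences of mean log2 values, Cre-positive minus Cre-negative, and the added count understates changes of low genes. Of the mTEC markers, Epcam had 5800.4, 5597.9 and 6771.2 normalized counts in Cre-positive libraries, against 5098.5, 4615.7, 3882.7 and 4978.2 in Cre-negative libraries. It was higher in Cre-positive libraries without overlap, but did not pass (limma adjusted p = 0.11). Groups did not overlap in 25.3% of all genes tested. Ccl21a was listed at 0 in all 7 libraries. Of the 9 mTEC markers tested, 2 were called higher and 2 lower, so these markers were not alike in both groups. Aire averaged 2967.0 ± 307.6 normalized counts in Cre-positive and 4417.1 ± 766.6 in Cre-negative libraries (SD, n = 3 and 4; limma adjusted p = 0.0395). That call was lost in edgeR (0.0565), with Y-linked genes as a term (0.0509) and with 1 library left out (adjusted p = 0.0931 without Cre-negative 75, 0.0941 without Cre-negative 77, 0.104 without Cre-positive 45 and 0.134 without Cre-positive 76). Ikzf1 had 1310.3, 1828.6 and 1677.5 normalized counts in Cre-positive libraries, against 1118.7, 1149.5, 1146.8 and 1219.0 in Cre-negative libraries (limma adjusted p = 0.0916), which does not check the labels, since the deleted part is not known. Summed Ddx3y, Eif2s3y, Kdm5d and Uty, which lie on the Y chromosome, were at 3938.0 normalized counts in Cre-negative 48 and at most 1.0 in every other library, so a fit with that sum as a term sets Cre-negative 48 apart from the rest. The labels used here give no sex.

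Pth was the 1 gene of the 9 that passed the test, and it was lower in Cre-positive mTECs. The other 8 did not pass. Over all genes tested 13.8% were called, 9.11% lower and 4.66% higher, so 1 of 9 is a share near the background. The median log2 fold change of the 9 was -0.51, beside -0.10 over all genes tested.

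**Figure D1:**
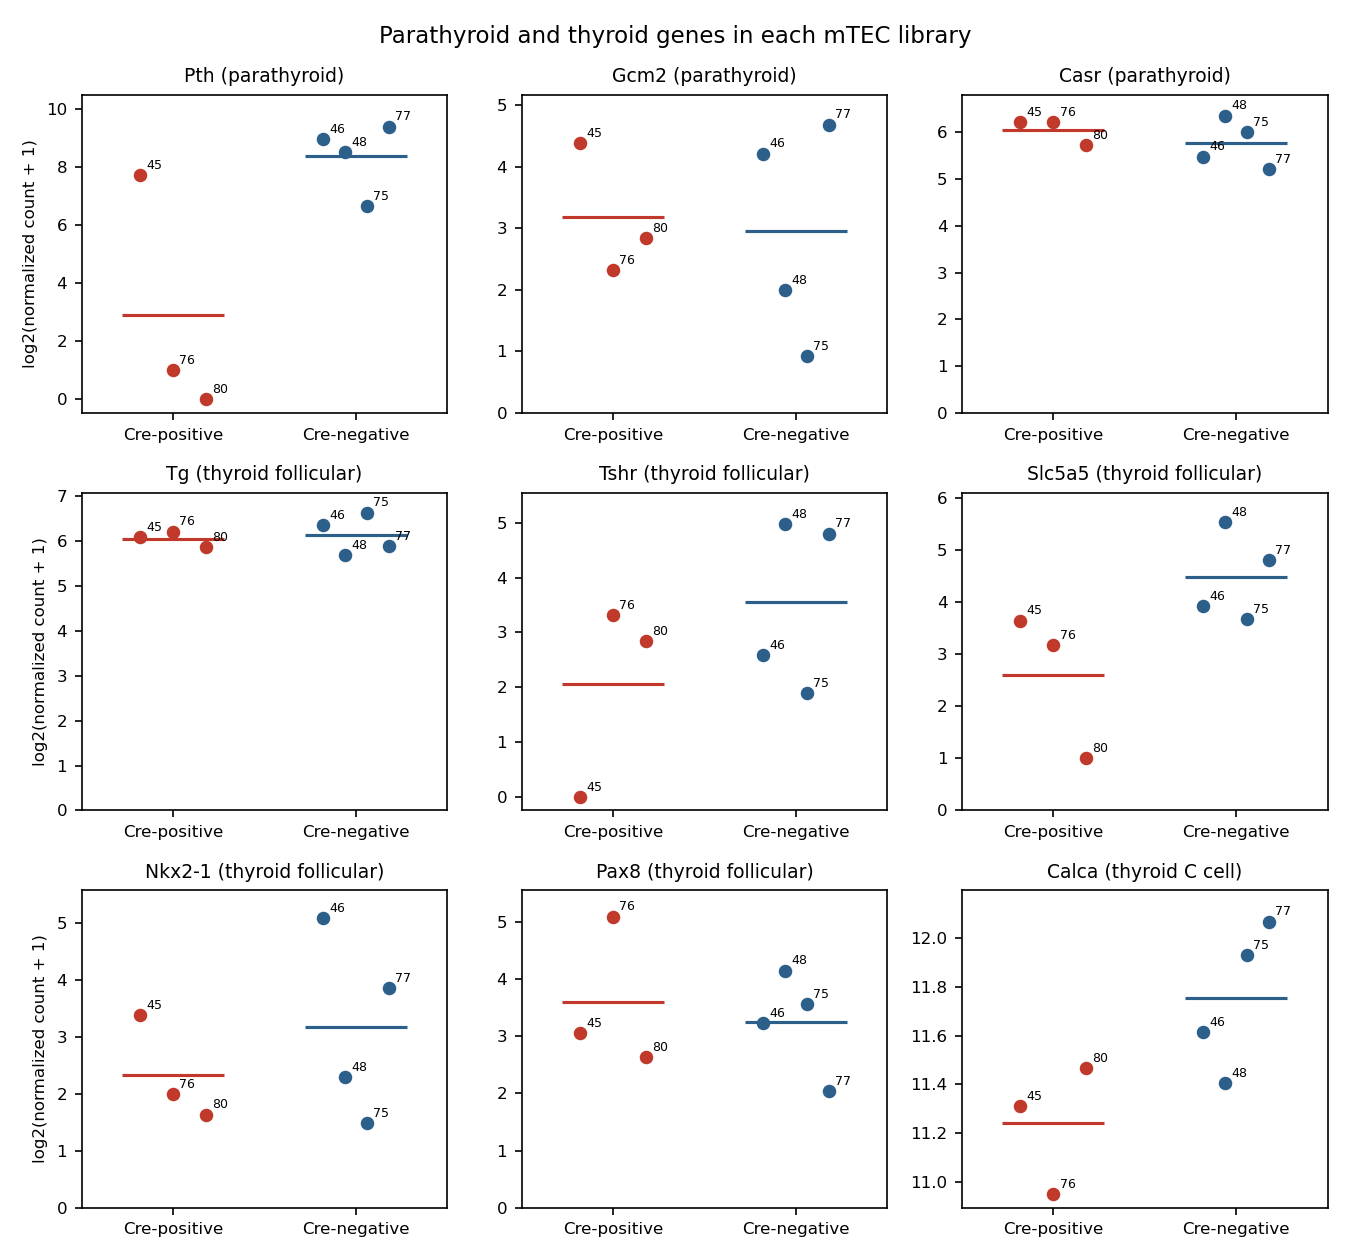
Log2(normalized count + 1) of each of the 9 genes (vertical axis, own range in each panel, not from 0 for Calca) in the 3 Cre-positive (red) and 4 Cre-negative (blue) libraries, with library numbers beside the points and group means as bars. Pth was at 1.0 and 0 normalized counts in Cre-positive 76 and 80 and at 209.0 in Cre-positive 45, which lies above Cre-negative 75 at 100, while the groups of Slc5a5 do not overlap.

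Pth encodes parathyroid hormone (ENSMUSG00000059077, GRCm38 chromosome 7, 113385580 to 113388570, minus strand). Its normalized counts were 209.0, 1.0 and 0 in Cre-positive 45, 76 and 80, against 497.8, 361.5, 100 and 666.9 in Cre-negative 46, 48, 75 and 77. Cre-positive 76 and 80 held almost none, and Cre-positive 45 exceeded Cre-negative 75, so the groups overlap. The values rest on 200, 1 and 0 reads in Cre-positive libraries and 594, 367, 111 and 645 reads in Cre-negative libraries. The exact Poisson 95% interval for 1 read is 0.0253 to 5.57, and that for 200 reads is 173.2 to 229.7. By a 1-sided limit, a count of 0 allows up to 3 reads. Intervals and limit cover counting error only. The spread within the Cre-positive group is therefore far beyond counting error.

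Group means of Pth were 70.0 ± 120.4 in Cre-positive and 406.5 ± 239.5 normalized counts in Cre-negative libraries (SD, n = 3 and 4), with a coefficient of variation of 172.0% in Cre-positive and 58.9% in Cre-negative libraries. The Cre-negative mean was 5.81 times the Cre-positive mean. The fitted log2 fold change was -5.47 (SE 1.39, 95% interval -8.47 to -2.48; limma adjusted p = 0.0208), larger than that ratio because the libraries at 1 and 0 reads weigh heavily on the log scale. In bulk libraries, fewer cells with Pth and less Pth per cell cannot be told apart. Among the libraries numbered 45 to 48, the Cre-positive value was 209.0, below 497.8 and 361.5 in Cre-negative libraries. Among those numbered 75 to 80, the Cre-positive values were 1.0 and 0, below 100 and 666.9 in Cre-negative libraries. Each range holds few libraries, and the labels do not say what the number ranges stand for. How many of all genes show the same order within both ranges was not counted, so no conclusion is drawn from it. With number range as a term the log2 fold change was -4.92 (limma adjusted p = 0.0112).

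The call did not hold under other count models. It was lost in DESeq2 (log2 fold change -2.54, adjusted p = 0.414), in edgeR's quasi-likelihood test (-2.55, 0.199), in limma-voom (-5.88, 0.0836) and with the Y-linked sum as a term in limma (-5.41, 0.0778). The authors' deposited table gives a log2 fold change of 2.54 for Cre-negative over Cre-positive, with an adjusted p of 0.38. The call was also lost in limma without Cre-negative 46 (adjusted p = 0.0607), 48 (0.061) or 77 (0.0575) and without Cre-positive 76 (0.0824) or 80 (0.0775). Without Cre-positive 45 the log2 fold change was -7.88 (limma adjusted p = 5.2e-05), and without Cre-negative 75 it was -6.04 (0.0241). Over all genes, DESeq2 called 17.8%, edgeR 11.2%, limma-voom 10.2%, and 21.8% were called by the authors' deposited table. All 17 alternatives run gave Pth a lower level in Cre-positive mTECs.

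**Figure D2:**
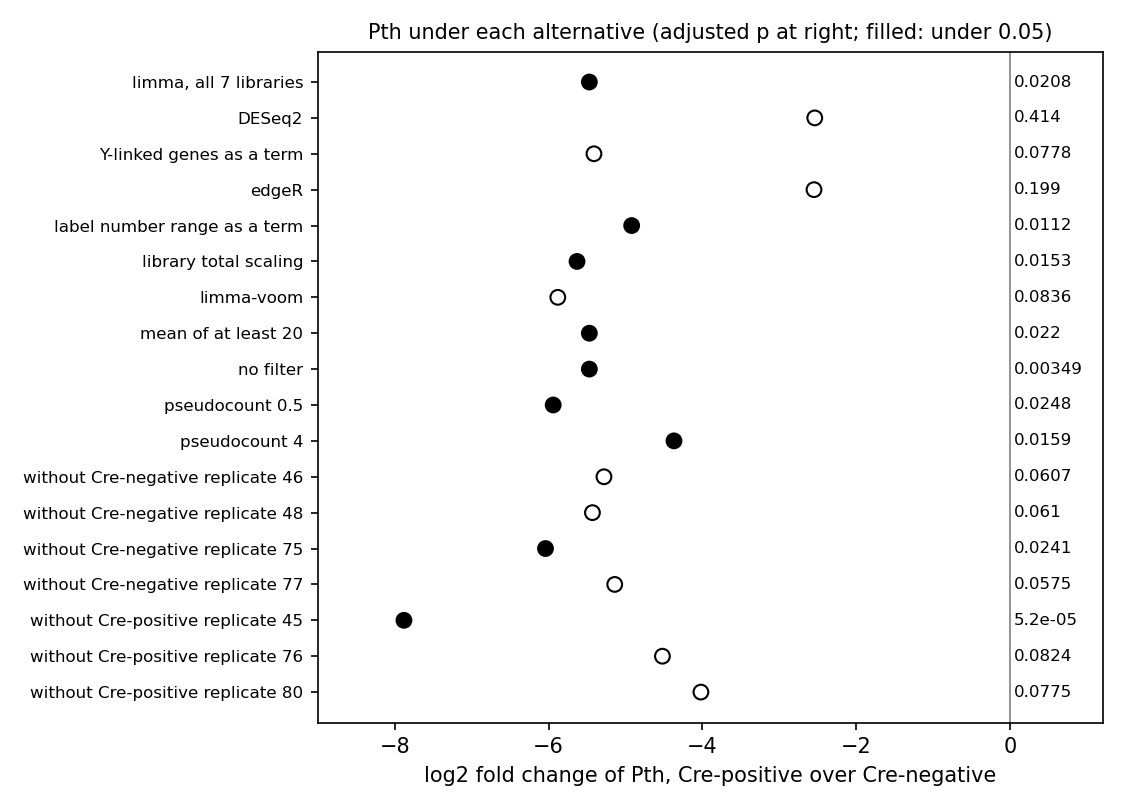
Log2 fold change of Pth, Cre-positive over Cre-negative (horizontal axis), under each of the 17 alternatives and in the limma fit on all 7 libraries, with the adjusted p printed at the right and filled points for those under 0.05. All points lie below 0, between -7.88 and -2.54, and 9 of the 17 alternatives are open.

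The 250 bases before the RefSeq transcription start are shown for Pth and Calca (RefSeq, GRCm38.p6, minus strand), as the pair with the most RNA per length. Their genes lie 1.24 Mb apart on chromosome 7. Capitals mark TATAAA, the TATA box letters, in the Pth window and TTCCC, the reverse of GGGAA, the core of the Ikaros motif, in the Calca window.
Pth chr7:113388574-113388823: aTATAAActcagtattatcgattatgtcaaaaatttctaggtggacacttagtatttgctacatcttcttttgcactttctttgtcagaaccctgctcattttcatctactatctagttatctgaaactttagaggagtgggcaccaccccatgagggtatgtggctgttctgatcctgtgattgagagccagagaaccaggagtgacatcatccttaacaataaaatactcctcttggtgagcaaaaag
Calca chr7:114636358-114636607: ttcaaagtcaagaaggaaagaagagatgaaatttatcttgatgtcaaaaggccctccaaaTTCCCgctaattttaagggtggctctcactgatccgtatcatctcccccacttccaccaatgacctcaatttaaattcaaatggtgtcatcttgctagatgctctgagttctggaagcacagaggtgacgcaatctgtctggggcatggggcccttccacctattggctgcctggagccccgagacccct
The motifs TATAAA and GGGAA, and the letters TGACGT that begin the cyclic AMP response element, were searched on both strands, and no 2 matches overlapped in these windows. The TATA letters stood 249 to 244 bases before the Pth start, and 12.4% of 32851 mouse promoter windows of that length hold it. GGGAA was found at 190 to 186 bases before the Calca start and not in the Pth window, and 56.2% of windows hold it. TGACGT was in neither window and is in 6.47% of all of them. These matches are letters in a window, not evidence of binding or of a working TATA box.

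Gcm2 and Casr, the other parathyroid genes, did not pass the test. Gcm2 encodes the transcription factor that mouse parathyroid development requires (ENSMUSG00000021362, chromosome 13, 41101427 to 41111035, minus strand). It had 19.9, 4.0 and 6.2 normalized counts in Cre-positive 45, 76 and 80, against 17.6, 3.0, 0.9 and 24.8 in Cre-negative 46, 48, 75 and 77. Each group held at least 1 library near 20 and others at 6 reads or fewer, and the groups overlap. The means were 10.0 ± 8.62 in Cre-positive and 11.6 ± 11.5 in Cre-negative libraries (SD, n = 3 and 4), with a log2 fold change of 0.23 (95% interval -2.06 to 2.51; limma adjusted p = 0.917). The sign of that value changed with the tool and with the library left out, and it rests on at most 24 reads in any library (exact Poisson 95% interval 15.4 to 35.7). Cre-positive 45, which held most of the Cre-positive Pth, was also the highest Cre-positive library for Gcm2. Cre-positive 76 and 80 stood in the other order, at 4 and 6 reads of Gcm2 against 1 and 0 reads of Pth. The Cre-negative libraries had the same order in both genes (77, 46, 48 and 75, high to low). Gcm2 in Cre-negative 48 and 75 rests on 3 and 1 reads. How many of all genes share that order was not counted, so no conclusion is drawn from it.

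Casr encodes the calcium-sensing receptor, through which blood calcium restrains parathyroid hormone secretion, and it also acts in kidney (ENSMUSG00000051980, chromosome 16, 36493696 to 36562141, minus strand). Its normalized counts were 73.1, 73.1 and 51.9 in Cre-positive libraries, against 43.6, 80.8, 63.1 and 36.2 in Cre-negative libraries. Every library had Casr, and the groups overlap, including Cre-positive 76 and 80, which had almost no Pth. The means were 66.0 ± 12.2 in Cre-positive and 55.9 ± 20.1 in Cre-negative libraries (SD, n = 3 and 4). The log2 fold change was 0.29 (95% interval -0.65 to 1.23; limma adjusted p = 0.716).

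Of the thyroid follicular genes, Slc5a5 was the 1 whose groups did not overlap. It encodes the sodium-iodide symporter, which brings iodide into the follicular cell (ENSMUSG00000000792, chromosome 8, 70882889 to 70892757, minus strand). Its normalized counts were 11.5, 8.0 and 1.0 in Cre-positive libraries, against 14.2, 45.3, 11.7 and 26.9 in Cre-negative libraries. All Cre-positive values were below all Cre-negative values, though 11.5 in Cre-positive 45 and 11.7 in Cre-negative 75 are 11 and 13 reads. The means were 6.83 ± 5.35 in Cre-positive and 24.5 ± 15.4 in Cre-negative libraries (SD, n = 3 and 4), with a log2 fold change of -1.88 (SE 0.86, 95% interval -3.73 to -0.02; limma adjusted p = 0.17). Slc5a5 did not pass the test over all genes, and groups without overlap, occurred in 25.3% of all genes tested, and lower in Cre-positive in 14.5%. In the authors' deposited table its log2 fold change is 1.84 for Cre-negative over Cre-positive, with an adjusted p of 0.121.

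Tg encodes thyroglobulin, the protein on which thyroid hormone is built (ENSMUSG00000053469, chromosome 15, 66670753 to 66850721, plus strand). Its normalized counts were 66.9, 73.1 and 57.1 in Cre-positive libraries, against 80.4, 50.2, 98.2 and 57.9 in Cre-negative libraries. Tg was present at a like level in every library, and the Cre-positive values lay within the Cre-negative range. The means were 65.7 ± 8.07 in Cre-positive and 71.7 ± 21.8 in Cre-negative libraries (SD, n = 3 and 4), with a log2 fold change of -0.08 (95% interval -0.94 to 0.78; limma adjusted p = 0.921). The sign changed without Cre-negative 75 or Cre-positive 80. Whether counting used the strand is not given in the sources used here, and Sla, a signalling adaptor of blood cells, lies on the other strand within the Tg span without sharing exons. Sla had 46, 85.1 and 22.8 normalized counts in Cre-positive libraries, against 113.1, 32.5, 69.4 and 48.6 in Cre-negative libraries (limma adjusted p = 0.691). The antisense gene Gm17140 shares 112 bases of exon with Tg and reached at most 8.0 normalized counts.

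Tshr encodes the receptor for thyroid-stimulating hormone (ENSMUSG00000020963, chromosome 12, 91384563 to 91549808, plus strand). It had 0, 9.0 and 6.2 normalized counts in Cre-positive libraries, against 5.0, 30.5, 2.7 and 26.9 in Cre-negative libraries. Cre-negative 48 and 77 were the high libraries, and the other 5 were below 10 normalized counts. The means were 5.07 ± 4.61 in Cre-positive and 16.3 ± 14.5 in Cre-negative libraries (SD, n = 3 and 4), with a log2 fold change of -1.51 (95% interval -3.90 to 0.89; limma adjusted p = 0.407).

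The transcription factors Nkx2-1 and Pax8 act together in follicular cells, Nkx2-1 also in lung and C cells, Pax8 also in kidney. Nkx2-1 (ENSMUSG00000001496, chromosome 12, 56531958 to 56536908, minus strand) had 9.4, 3.0 and 2.1 normalized counts in Cre-positive libraries, against 32.7, 3.9, 1.8 and 13.4 in Cre-negative libraries. Its 3 highest libraries were Cre-positive 45 and Cre-negative 46 and 77, as for Gcm2. How many of all genes share these 3 was not counted, so no conclusion is drawn from it. The Nkx2-1 means were 4.83 ± 3.98 in Cre-positive and 12.9 ± 14.1 in Cre-negative libraries (SD, n = 3 and 4), with a log2 fold change of -0.84 (95% interval -3.05 to 1.38; limma adjusted p = 0.64).

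Pax8 (ENSMUSG00000026976, chromosome 2, 24420560 to 24475599, minus strand) had 7.3, 33.0 and 5.2 normalized counts in Cre-positive libraries, against 8.4, 16.7, 10.8 and 3.1 in Cre-negative libraries. Cre-positive 76, which was low for Gcm2 and Nkx2-1, was the highest for Pax8. The means were 15.2 ± 15.5 in Cre-positive and 9.75 ± 5.64 in Cre-negative libraries (SD, n = 3 and 4), with a log2 fold change of 0.35 (95% interval -1.55 to 2.25; limma adjusted p = 0.839). The sign changed without Cre-positive 76 or Cre-negative 77. Gm13415, on the other strand, shares 367 bases of exon with Pax8 and averaged 2.73 normalized counts in Cre-positive and 2.60 in Cre-negative libraries.

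Calca was by far the most abundant of the 9. It encodes calcitonin, the hormone of thyroid C cells, and by alternative splicing the neuropeptide CGRP, and a count per gene does not separate these transcripts (ENSMUSG00000030669, chromosome 7, 114631478 to 114636357, minus strand). Its normalized counts were 2537.1, 1973.8 and 2830.7 in Cre-positive libraries, against 3135.0, 2712.7, 3904.3 and 4295.8 in Cre-negative libraries. Every library was high, and the only overlap was Cre-positive 80 above Cre-negative 48. The means were 2447.2 ± 435.5 in Cre-positive and 3511.9 ± 718.6 in Cre-negative libraries (SD, n = 3 and 4). The log2 fold change was -0.51 (SE 0.19, 95% interval -0.93 to -0.10; limma adjusted p = 0.0962), which did not pass. It did pass with scaling to library totals (-0.72, limma adjusted p = 0.0171), which moved the median of all genes to -0.29, and without Cre-negative 48 (-0.63, 0.0477).

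**Figure D3:**
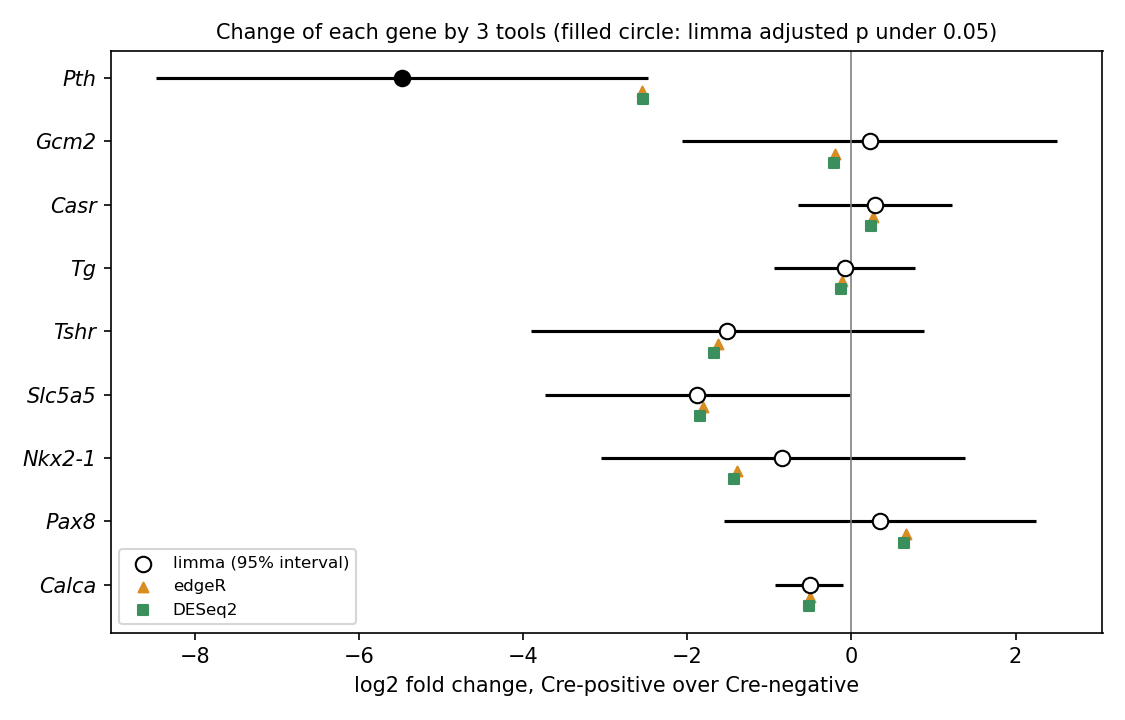
Log2 fold change of each of the 9 genes, Cre-positive over Cre-negative (horizontal axis), from limma (circles with 95% intervals, filled where the adjusted p is under 0.05), edgeR (triangles) and DESeq2 (squares). Pth has the lowest estimate and an interval of -8.47 to -2.48, and its edgeR and DESeq2 values, -2.55 and -2.54, lie close to the upper end of that interval, while the intervals of Gcm2, Casr, Tg, Tshr, Nkx2-1 and Pax8 lie on both sides of 0.

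Levels were compared between genes per kb of exon, in normalized counts. In Cre-positive libraries the order was Calca (mean 1453.2), Pth (98.6), Casr (14), Tg (7.40), Gcm2 (3.04), Pax8 (2.50), Slc5a5 (2.33), Nkx2-1 (1.70) and Tshr (0.843). In Cre-negative libraries it was Calca (2085.5), Pth (572.6), Casr (11.9), Slc5a5 (8.38), Tg (8.07), Nkx2-1 (4.56), Gcm2 (3.5), Tshr (2.71) and Pax8 (1.61). Calca stood clear of Pth in both groups, while Pth in Cre-positive libraries ranged from 0 to 294.4 per kb and so could not be ordered against Casr. Among Cre-positive libraries Casr did not overlap Tg, nor Tg Gcm2, and each of the 5 lowest genes overlapped its neighbour among them. In Cre-negative libraries every neighbour below Pth overlapped the next. By mean level per kb over the 7 libraries, Calca lay at the 98.1 percentile and Pth at the 93.1 percentile of the genes tested, against the 36.8 percentile for Casr and between 4.14 and 25.9 for the rest.

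The 3 genes whose pattern over the 7 libraries was most like that of Pth were Lce3b, Crisp3 and Gkn2. Likeness was the mean absolute difference between centred log2 values, which was 0.82, 0.91 and 0.96, beside a median of 3.17 over all genes tested. Lce3b, a late cornified envelope gene of a family of near copies, had 29.3, 2.0 and 0 normalized counts in Cre-positive libraries, against 430.7, 474.8, 197.3 and 1012.2 in Cre-negative libraries. Crisp3, a cysteine-rich secretory protein, had 38.7, 0 and 0 in Cre-positive libraries, against 240.5, 298.5, 410.8 and 434.2 in Cre-negative libraries. Gkn2, a gastrokine of the stomach, had 29.3, 3.0 and 0 in Cre-positive libraries, against 150.8, 219.7, 49.5 and 174.7 in Cre-negative libraries. In all 3, as in Pth, Cre-positive 45 held most of the Cre-positive reads, but here it lay below every Cre-negative library. The genes were picked for their likeness, so no test is given.

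Genes that work with the 9 were described from 7 named lists, each read from the fit over all genes. The counts of each list stand beside 9.11% called lower and 4.66% called higher over all genes tested. Groups did not overlap in 25.3% of all genes tested, lower in Cre-positive in 14.5%. No list was tested against these shares.

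**Figure D4:**
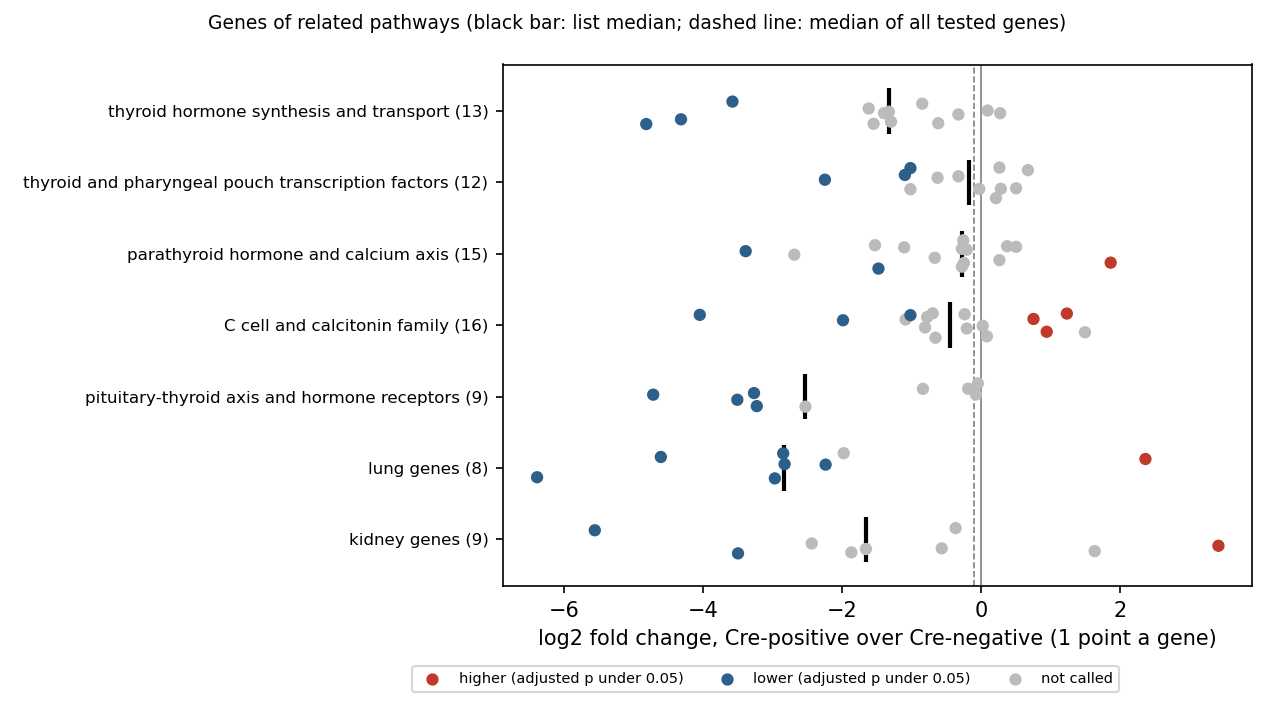
Log2 fold change, Cre-positive over Cre-negative (horizontal axis), of each tested gene of the 7 lists (number tested in brackets), red where higher and blue where lower at an adjusted p under 0.05, grey where not called. List medians (black bars) are -2.84 for lung genes and -2.53 for the pituitary-thyroid axis, and -0.18 for the thyroid and pouch transcription factors, near the dashed line at -0.10 for all genes tested.

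Of the genes of thyroid hormone synthesis and transport, 3 of 13 tested were lower in Cre-positive mTECs and none was higher, with a median log2 fold change of -1.33. All 3 are channels or transporters of anions. Slc5a8, a sodium-coupled carrier found on the apical side of follicular cells, had 5.2, 70.1 and 12.5 normalized counts in Cre-positive libraries, against 627.7, 705.3, 371.1 and 415.6 in Cre-negative libraries (log2 fold change -4.82, SE 0.63; limma adjusted p = 0.000443). Slc26a7, an anion exchanger of follicular cells, had 1.0, 3.0 and 1.0 in Cre-positive libraries, against 34.4, 118.2, 45.9 and 31.0 in Cre-negative libraries (-4.32, SE 0.75; 0.00262). Ano1, a calcium-activated chloride channel, had 36.6, 18 and 2.1 in Cre-positive libraries, against 145.0, 165.5, 180.2 and 133.4 in Cre-negative libraries (-3.58, SE 0.69; 0.00477). No Cre-positive library reached the lowest Cre-negative one for any of them. The values moved without Cre-positive 45 to -4.05 for Slc5a8 and -4.35 for Ano1, without Cre-positive 76 to -5.81 for Slc5a8, and without Cre-positive 80 to -2.54 for Ano1. DESeq2 gave -4.17 for Slc5a8 and -5.07 for Slc26a7, and with 4 added before the log Slc26a7 was at -3.26. Dio1, a deiodinase, did not pass, at 2136.6 ± 358.8 in Cre-positive and 2676.4 ± 339.0 in Cre-negative libraries (SD, n = 3 and 4; limma adjusted p = 0.223). Slc26a4, the anion exchanger pendrin, averaged 67.4 ± 31.7 in Cre-positive and 117.3 ± 31.6 in Cre-negative libraries (0.186). Duoxa2 was under the filter.

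Of the thyroid and pharyngeal pouch transcription factors, 3 of 12 tested were lower in Cre-positive mTECs, none was higher, and the median was -0.18. Gata3, required for parathyroid development in mice and also a lymphoid factor, averaged 39.0 ± 27.1 in Cre-positive and 168.8 ± 54.3 normalized counts in Cre-negative libraries (log2 fold change -2.25, SE 0.48; limma adjusted p = 0.00871). Foxn1, the master factor of thymic epithelium, averaged 620.2 ± 85.9 in Cre-positive and 1254.8 ± 99.5 in Cre-negative libraries (-1.02, SE 0.17; 0.00236). Pax1, a pouch factor, averaged 197.8 ± 49.6 in Cre-positive and 422.8 ± 83.9 in Cre-negative libraries (-1.10, SE 0.26; 0.0154), and its call was lost without Cre-negative 46 (0.0529) or Cre-positive 76 (0.0617) and with the Y-linked term (0.0647). AI646519, which shares 183 bases of exon with Pax1 on the other strand, averaged 128.4 normalized counts over the 7 libraries, beside 326.3 for Pax1. Foxe1, the follicular forkhead factor, was under the filter.

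Of the parathyroid hormone and calcium axis, 1 of 15 tested was higher in Cre-positive mTECs, 2 were lower and the median was -0.28. Pthlh, the relative of Pth that shares its receptor, was the higher gene, with 1518.3, 1250.8 and 2143.6 normalized counts in Cre-positive libraries, against 482.7, 394.0, 462.1 and 417.7 in Cre-negative libraries. Every Cre-positive library was above every Cre-negative one (means 1637.6 ± 458.2 in Cre-positive and 439.1 ± 40.5 in Cre-negative libraries; log2 fold change 1.86, SE 0.21; limma adjusted p = 0.000178). S100g, the vitamin D-dependent calcium-binding protein calbindin-D9k, averaged 3732.2 ± 816.1 in Cre-positive and 10456.9 ± 2547.8 in Cre-negative libraries (-1.48, SE 0.21; 0.000688). Kl, the co-receptor for FGF23, had 1.0, 8.0 and 1.0 in Cre-positive libraries, against 45.3, 106.4, 27.0 and 9.3 in Cre-negative libraries (-3.39, SE 0.93; 0.03). The call of Kl was lost in limma-voom (0.126), with the Y-linked term (0.126), without Cre-negative 46 (0.0852), 48 (0.0966) or 75 (0.0535) and without Cre-positive 45 (0.0792) or 80 (0.0808), and its log2 fold change was -4.11 without Cre-positive 76. Ap2s1 and Gnaq, through which Casr is trafficked and signals, averaged 2247.1 ± 627.4 and 667.8 ± 168.5 in Cre-positive libraries, against 1606.0 ± 489.0 and 515.4 ± 108.2 in Cre-negative libraries, and did not pass (0.214 and 0.338). Fgf23 was under the filter.

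Of the C cell and calcitonin family genes, all 16 were tested, 3 were higher in Cre-positive mTECs, 3 were lower and the median was -0.45. Calcb, which encodes the second CGRP and is a near copy of Calca, had 3006.3, 2805.0 and 3582.3 normalized counts in Cre-positive libraries, against 6709.1, 4918.1, 6643.8 and 7196.9 in Cre-negative libraries (log2 fold change -1.02, SE 0.17; limma adjusted p = 0.00185). Its groups did not overlap, while those of Calca did, and reads of the 2 copies could have been split between them in counting. Iapp, the islet hormone amylin, averaged 837.7 ± 606.6 in Cre-positive and 2616.2 ± 940.1 in Cre-negative libraries (-1.99, SE 0.51; 0.0224). Calcr, the calcitonin receptor, had 0, 20 and 15.6 in Cre-positive libraries, against 112.3, 177.3, 42.3 and 207.8 in Cre-negative libraries (-4.05, SE 0.95; 0.0142). The call of Iapp was lost in DESeq2 (0.0772), edgeR (0.0561), with the Y-linked term (0.0903) and without Cre-negative 46 (0.0693) or 48 (0.067), and its value was -1.13 without Cre-positive 76. That of Calcr was lost in limma-voom (0.0654), with the Y-linked term (0.0685) and without Cre-negative 48 (0.0534), and its value was -2.64, -4.83 and -4.66 without Cre-positive 45, 76 and 80.

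Adm and Ret were among the 3 higher genes of this family. Adm, the vasodilator adrenomedullin, averaged 3948.7 ± 1087.9 in Cre-positive and 2053.3 ± 486.5 normalized counts in Cre-negative libraries (log2 fold change 0.94, SE 0.22; limma adjusted p = 0.0125), and its call was lost without Cre-positive 80 (0.0521) and with the Y-linked term (0.0535). Ret, the receptor kinase mutated in C cell tumours of humans, averaged 202.3 ± 76.3 in Cre-positive and 82.9 ± 12.3 in Cre-negative libraries (1.23, SE 0.33; 0.0284). The call of Ret was lost without Cre-negative 46 (0.051), 48 (0.0609) or 77 (0.0659), without Cre-positive 76 (0.126), with the Y-linked term (0.0905) and with scaling to library totals (0.062). Calcrl, the CGRP receptor, and Pam, the amidating enzyme, averaged 1432.5 ± 197.1 and 976.6 ± 50.4 in Cre-positive libraries, against 1364.8 ± 268.1 and 1175.6 ± 413.3 in Cre-negative libraries, and did not pass (0.827 and 0.607).

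Of the pituitary-thyroid axis and hormone receptors, 4 of 9 tested were lower in Cre-positive mTECs, none was higher, and the median was -2.53. The 4 are the hormones and the receptor above the thyroid. Trh, the hypothalamic releasing hormone, had 0, 2.0 and 2.1 normalized counts in Cre-positive libraries, against 37.7, 25.6, 108.1 and 83.7 in Cre-negative libraries (log2 fold change -4.72, SE 0.80; limma adjusted p = 0.00225). Its receptor Trhr averaged 5.13 ± 1.10 in Cre-positive and 59.3 ± 15.2 in Cre-negative libraries (-3.27, SE 0.59; 0.00316). Tshb, the beta chain of thyroid-stimulating hormone, had 24, 17.0 and 3.1 in Cre-positive libraries, against 181.0, 106.4, 100.9 and 87.9 in Cre-negative libraries (-3.23, SE 0.62; 0.0048). Cga, the alpha chain that it shares with the gonadotropins, had 108.7, 18 and 20.8 in Cre-positive libraries, against 547.2, 190.1, 371.1 and 699.9 in Cre-negative libraries (-3.51, SE 0.58; 0.00199). The groups of these 4 genes did not overlap, while those of Tshr did. The value of Trh was -5.54 in DESeq2 and -3.49 with 4 added before the log. The value of Tshb was -2.44 without Cre-positive 80 and that of Cga -4.32 without Cre-positive 45. Serpina7, the thyroxine-binding globulin, and the receptor Thrb averaged 648.3 ± 141.1 and 302.8 ± 93.0 in Cre-positive libraries, against 703.3 ± 254.9 and 319.0 ± 109.1 in Cre-negative libraries, and did not pass (0.879 and 0.935).

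Since Nkx2-1 is also a lung factor, lung genes were read beside it. Of 8 tested, 6 were lower in Cre-positive mTECs, 1 was higher and the median was -2.84. Scgb3a2, a secretoglobin of airway cells, had 0, 1.0 and 0 normalized counts in Cre-positive libraries, against 145.0, 136.9, 38.7 and 154.0 in Cre-negative libraries (limma adjusted p = 0.000216). Lamp3, of alveolar lamellar bodies and mature dendritic cells, had 1.0 in each Cre-positive library, against 36.9, 50.2, 70.3 and 40.3 in Cre-negative libraries (0.00115). Both are at 3 reads or fewer in the whole Cre-positive group, so no fold is given. The surfactant protein Sftpd averaged 49.2 ± 15.4 in Cre-positive and 367.8 ± 145.7 in Cre-negative libraries (log2 fold change -2.83, SE 0.37; 0.000466) and Sftpa1 averaged 35.4 ± 30.4 in Cre-positive and 204.2 ± 100.6 in Cre-negative libraries (-2.97, SE 0.76; 0.0216).

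Sftpb, another surfactant protein, had 2.1, 1.0 and 6.2 in Cre-positive libraries, against 13.4, 27.6, 31.5 and 31.0 in Cre-negative libraries (log2 fold change -2.85, SE 0.79; limma adjusted p = 0.0303). The call of Sftpa1 was lost in limma-voom (0.052), with the Y-linked term (0.0968) and without Cre-negative 46 (0.0692) or 48 (0.0731), and its value was -3.71 and -1.86 without Cre-positive 45 and 76. That of Sftpb was lost in edgeR (0.0597), limma-voom (0.0885), with the Y-linked term (0.0866), with no filter (0.0648) and with Cre-negative 48 (0.0715), 75 (0.0701) or 77 (0.0796), or Cre-positive 45 (0.0662) or 76 (0.0808), left out. The 1 higher gene was Napsa, an aspartic protease of alveolar and kidney cells, which lies outside the rule for named genes and was chosen after its values were seen. Napsa had 671.9, 688.0 and 1075.4 in Cre-positive libraries, against 119.0, 84.7, 289.2 and 191.3 in Cre-negative libraries (2.36, SE 0.37; 0.00138). Sftpc averaged 62.7 ± 55.2 in Cre-positive and 164.4 ± 44.8 in Cre-negative libraries and did not pass (0.0735). It did pass, as lower, in limma with scaling to library totals (0.0453) and without Cre-positive 80 (0.0169).

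Pax8 and Casr are also kidney genes. Of 9 kidney genes tested, 1 was higher in Cre-positive mTECs, 2 were lower and the median was -1.66. Umod, the urinary protein uromodulin, averaged 213.0 ± 105.9 in Cre-positive and 23.4 ± 19.3 normalized counts in Cre-negative libraries (log2 fold change 3.41, SE 0.72; limma adjusted p = 0.00784), and its value was 2.80 without Cre-negative 77. Slc12a1, a salt carrier of the same nephron segment, moved the other way, with 0, 1.0 and 4.2 in Cre-positive libraries, against 71.2, 43.3, 203.6 and 172.7 in Cre-negative libraries (-5.56, SE 0.79; 0.000765), and its value was -6.19 without Cre-positive 80 and -4.29 with 4 added before the log. Cldn16, a tight-junction protein of that segment, had 1.0, 1.0 and 0 in Cre-positive libraries, against 5.9, 12.8, 61.3 and 16.5 in Cre-negative libraries (0.0298), too few reads for a fold. The call of Cldn16 was lost in limma-voom (0.144), with the Y-linked term (0.0659), with no filter (0.0588) and with Cre-negative 48 (0.0535), 75 (0.0778) or 77 (0.0639), or any of Cre-positive 45 (0.0537), 76 (0.0545) and 80 (0.0823), left out. Cdh16 and Wt1 averaged 73.4 ± 29.9 and 10.3 ± 7.57 in Cre-positive libraries, against 23.1 ± 9.54 and 37.1 ± 16.2 in Cre-negative libraries, and did not pass (0.0656 and 0.0934). Cdh16 did pass, as higher, in DESeq2 (adjusted p = 0.0245) and in limma with number range as a term (0.0362). Emx2 was under the filter.

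The parathyroid chief cell markers Pth, Gcm2 and Casr summed to 58.1 to 302.0 normalized counts in Cre-positive and 164.0 to 727.9 in Cre-negative libraries. Of these 3 genes 1 was called, lower, beside 9.11% called lower over all genes tested. The follicular genes Tg, Tshr, Slc5a5, Nkx2-1 and Pax8 summed to 95.1, 126.1 and 71.6 in Cre-positive libraries, against 140.7, 146.6, 125.2 and 128.2 in Cre-negative libraries. These sums overlap between Cre-positive 76 and Cre-negative 75. The follicular marker list as planned also held other genes, not all reported here by name. Its sums were lower in Cre-positive libraries without overlap, so overlap of the follicular sum depends on the genes taken.

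Markers of other cell types that an EPCAM gate could hold were summed beside these. The myeloid and dendritic sum was 7429.4 to 11330.2 normalized counts in Cre-positive and 5215.6 to 7001.4 in Cre-negative libraries, without overlap, with 1 of 7 genes called higher and 2 called lower. Lyz2 carried that direction, at 8366.5 ± 2408.1 in Cre-positive and 5180.1 ± 698.6 in Cre-negative libraries (SD, n = 3 and 4; limma adjusted p = 0.0328). Its call was lost without Cre-negative 46 (0.0848), 48 (0.0701) or 77 (0.0711), without Cre-positive 80 (0.129), with the Y-linked term (0.101) and with scaling to library totals (0.093). Without Lyz2, a split made after the values were seen, the other 6 genes summed to 183.7 to 555.9 in Cre-positive and 724.0 to 871.1 in Cre-negative libraries, lower without overlap. Both lower genes mark macrophages, among other myeloid cells. Adgre1 averaged 37.8 ± 16.1 in Cre-positive and 296.4 ± 112.8 in Cre-negative libraries (limma adjusted p = 0.000819), and Itgam averaged 16.0 ± 2.57 in Cre-positive and 82.9 ± 12.4 in Cre-negative libraries (0.00531). Sums overlapped for thymocytes (719.3 to 2640.5 in Cre-positive and 925.1 to 1590.6 in Cre-negative libraries), B cells (240.3 to 473.3 in Cre-positive, 325.9 to 446.7 in Cre-negative) and fibroblasts (1211.4 to 1629.4 in Cre-positive, 1162.9 to 1670.5 in Cre-negative). They also overlapped for endothelium (283.1 to 374.6 in Cre-positive, 324.7 to 422.5 in Cre-negative), cortical thymic epithelium (15100.3 to 22030.4 in Cre-positive, 20118.2 to 24682.0 in Cre-negative) and mTECs (89782.9 to 120589.5 in Cre-positive, 72213.1 to 123524.4 in Cre-negative). Of these lists, 0 of 10 thymocyte, 1 of 5 B cell (lower), 2 of 6 fibroblast (lower), 0 of 5 endothelial and 1 of 5 cortical genes (lower) were called, and of 9 mTEC genes 2 were called higher and 2 lower. Over all genes tested, 9.11% were called lower and 4.66% higher. Each sum follows its most abundant genes and can hide changes of the others. Overlap of sums therefore does not show that the groups held a like share of a cell type. The part of these cell types in the values of Pth and the thyroid genes was not tested.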

How the data were processed

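RNA was sequenced from EPCAM-positive mTECs of 3 Cre-positive and 4 Cre-negative mouse thymus samples, grouped by the titles in the labels. The submitters' processing notes name STAR 2.7.9a, DESeq2 and the build GRCm39. How reads were counted, and on which strand, is not given in the sources used here. The authors deposited normalized counts (a signal: counts over a size factor, rounded to 1 decimal), and a log2 fold change (Cre-negative over Cre-positive) with raw and adjusted p-values. The deposited gene coordinates equal GENCODE M21 on GRCm38 for 49909 of 52403 genes (95.2%), so positions are given on GRCm38. Of the gene IDs, 3047 had no symbol and all were named from a gene ID table. Another 7 per-sample columns of stabilized values were not used.

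The read count behind each normalized count was recovered (100% of values within 0.0501), for library totals, counting intervals and the count models. The test covered the 22878 genes whose mean was at least 5 normalized counts (32658 were not tested). It was limma's trend test on log2(normalized count + 1), fitted to genotype alone, and p-values were adjusted by Benjamini-Hochberg. The count models were alternatives: edgeR's quasi-likelihood test called 11.2%, DESeq2 17.8% and limma-voom 10.2% of the genes they tested, and the authors' deposited adjusted p-values 21.8% of 19558 genes. Other alternatives were the pseudocount, filter, scaling, label number range or summed Y-linked level as a term, and leaving out each library. The steps were tested on simulated data.

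The 9 genes and the lists were chosen with earlier results of these data known. From each companion list the text names up to 5 called genes with the largest change and the 2 most abundant that were not called, and for Pth its 3 nearest patterns. Some genes of the lists are counted in them but not reported here by name. It also names every gene overlapping 1 of the 9 in position, of which 6 were found, with Gm25902 (Casr), Gm18827 (Tshr) and Gm26973 (Nkx2-1) at a mean under 1 normalized count in both groups. Promoter sequences of 7 of the 9 genes were matched by symbol in RefSeq. Versions were Python 3.11.15 with pandas 2.3.3, numpy 2.4.6, matplotlib 3.10.9 and scipy 1.17.1, and R 4.3.3 with DESeq2 1.42.0, limma 3.58.1 and edgeR 4.0.16.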

Additional observations from a re-analysis of the deposited data

How the results depend on the processing

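The number of the 9 genes called was 1, and it was 0 in DESeq2, edgeR, limma-voom and with the Y-linked term, 2 with scaling to library totals and 0 to 1 with 1 library left out. The log2 fold change of Pth was no longer called in DESeq2 (-2.54), edgeR (-2.55), limma-voom (-5.88) or with the Y-linked term (-5.41), and ran from -7.88 to -4.02 with 1 library left out. That of Calca became called with scaling to library totals (-0.72). Gcm2 took the other sign in DESeq2 (-0.21), edgeR (-0.20), with the Y-linked term (-0.20), and without Cre-negative 48 (-0.09), Cre-negative 75 (-0.45) or Cre-positive 45 (-0.37), within -0.45 to 0.80 with 1 library left out. Tg did so without Cre-negative 75 (0.08) or Cre-positive 80 (0.01), within -0.23 to 0.08, and Pax8 without Cre-negative 77 (-0.06) or Cre-positive 76 (-0.40), within -0.40 to 0.83. With a mean of at least 20, only Pth, Calca, Casr and Tg were tested. Beyond the 9, 43 genes that passed were followed, all taken by the naming rule except Napsa and another lung gene. Of these 43, 28 were called under every alternative run, 15 lost the call under at least 1 and 0 changed sign. Napsa and the other added lung gene are among the 28. Over all genes, 1066 were higher and 2084 lower, against 558 and 1351 with the Y-linked term, 583 and 2629 with scaling to library totals, 1235 lower in limma-voom, and 590 to 1004 higher and 1309 to 1740 lower with 1 library left out. The cause was not tested. No paired analysis was possible because the groups share no replicate number. The 95% interval of the log2 fold change was -2.06 to 2.51 for Gcm2, which had at most 24 reads in any library. For Pth, which had 0 to 645 reads in a library, it was -8.47 to -2.48. What sets the width of these intervals was not tested.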
